A study of Mus musculus with 16 samples.

Results

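Myh6, Myh7, Acta1, Actc1, Tnni1, Tnni3, Ankrd1, Nmrk2, Fhl1 and Uchl1 are 10 genes that mark fetal or adult contractile isoforms and the response of heart muscle to load. They were taken by symbol, under GENCODE M21, from a gene count table of 33399 genes in the ventricles of 16 C57BL/6 mice. All 10 were among the 16400 genes with enough counts to test. The mice were wild type, came from Jackson and were 8 weeks old when the diets began. The CKD (chronic kidney disease) mice, 4 males and 4 females, ate chow with 0.25% adenine, alternated with standard chow, for 6 weeks. This regimen was set to a goal of 40 to 70 mg/dL for the median blood urea nitrogen, a marker of lost kidney function. The controls, 4 males and 4 females, ate standard chow for the same 6 weeks. Dietary adenine is known to injure the kidney tubules by forming crystals. The libraries were of whole ventricular tissue.

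The mouse heart changes its contractile proteins at birth. The fetal ventricle uses mainly the slow β-myosin heavy chain (Myh7) and slow skeletal troponin I (Tnni1), with skeletal α-actin (Acta1) beside cardiac α-actin. The adult ventricle uses mainly the fast α-myosin heavy chain (Myh6), cardiac α-actin (Actc1) and cardiac troponin I (Tnni3). Pressure load in adult rodents is known to bring fetal isoforms back and to raise Ankrd1, a stretch-responsive protein of the sarcomere and nucleus. The fetal to adult ratio of each isoform pair is therefore a common readout of cardiac remodelling.

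The libraries held 10203707 to 13626039 counts each. Levels are given as counts per 1000000 counts (CPM) scaled by the trimmed mean of M values, and levels of different genes are compared as RPKM, that CPM per kilobase of merged exons. Adjusted p-values come from edgeR's quasi-likelihood test with Benjamini-Hochberg adjustment over the 16400 genes, at a threshold of 0.05. They weigh each difference against the spread between these mice. Male CKD mouse 4 stood apart, with 1219 genes more than 0.5 log2 units outside the range of the other 15 libraries, and female control mouse 2 did so with 752 genes. In the other 14 libraries the number was 10 to 190. Markers of the tissue were as follows. Summed cardiomyocyte markers reached 25260 to 35795 CPM in CKD mice and 23621 to 28686 CPM in controls, and summed atrial markers 187.6 to 785.6 CPM in CKD mice and 248.8 to 968.8 CPM in controls. Skeletal muscle markers, 12 of 12 in the table, summed to only 22.76 to 46.68 CPM in CKD mice and 29.36 to 39.59 CPM in controls, with Tnnc2 at 0 in 15 libraries and Myh2 at 0 in 8. Male CKD mouse 4 had the lowest fibroblast sum, 500.5 CPM, against 1323 to 2229 CPM in the other CKD mice and 1771 to 2383 CPM in controls. Its endothelial sum was also the lowest, at 215.1 CPM, and its cardiomyocyte sum the highest. The part of cell makeup in the results below was not tested, and in bulk tissue fewer cells of a type and less RNA per cell cannot be told apart.

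None of the 10 genes passed the adjusted threshold between CKD mice and controls, against 0.0854% of all genes tested. DESeq2 called 1 of them, Ankrd1, against 2.43% of all genes by that tool, and limma-voom called 0, against 1.21%. The widest differences were in Ankrd1, which was 0.75 log2 units higher in CKD mice (SE 0.21, adjusted p = 0.123), and Acta1, which was 0.89 log2 units lower (SE 0.30, adjusted p = 0.177). Myh7, Tnni3 and Tnni1 had positive values of 0.26 to 0.41, and Myh6, Actc1, Nmrk2, Fhl1 and Uchl1 lay between 0.00 and 0.13. The fold change was positive in 8 of 10, against 50.2% of all genes, and the median of the 10 was 0.11, against 0.00 over all genes. An unadjusted p under 0.05 was reached by 3 of 10 (Acta1, Tnni3 and Ankrd1), against 15.4% of all genes. Within males alone 0 of 10 did so, against 6.88% of all genes, and within females alone 2 of 10 (Ankrd1 and Acta1), against 8.34%. At the adjusted threshold 0 of 10 passed within males, against 0% of all genes, and 0 of 10 within females, against 0.0549%.

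**Figure D1:**
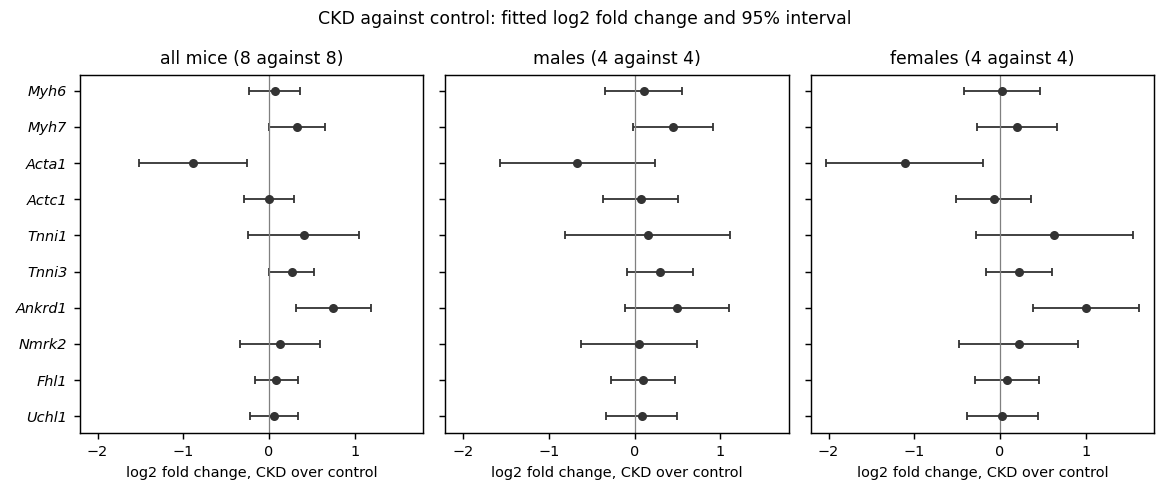
Fitted log2 fold change, CKD over control, of the 10 genes in all mice (8 against 8), in males and in females (4 against 4 each); points are the estimates and bars their 95% intervals. In all mice the Ankrd1 interval ran from 0.31 to 1.19, the Acta1 interval from -1.52 to -0.26 and the Tnni3 interval from 0.00 to 0.52, and the other 7 intervals held 0.

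In adult ventricle of either diet the levels per kilobase covered a wide range. Over all 16 mice Actc1 averaged 2537 ± 497 RPKM, Myh6 1878 ± 382, Tnni3 1220 ± 257, Ankrd1 466.3 ± 199, Myh7 173.1 ± 52.1, Acta1 104.8 ± 61.6 and Fhl1 45.4 ± 8.73 (SD, n = 16). Nmrk2 averaged 6.14 ± 2.12 RPKM and Uchl1 5.97 ± 1.03 RPKM, and Tnni1 was lowest at 0.256 ± 0.133 RPKM. The ranges of each neighbouring pair in this order overlapped, apart from Fhl1 over Nmrk2 and Uchl1 over Tnni1. In every mouse the adult isoform was the higher of each pair. The highest fetal to adult ratios per kilobase were 0.1812 (Myh7 to Myh6), 0.0953 (Acta1 to Actc1) and 0.0005195 (Tnni1 to Tnni3). Relative spread over all 16 mice was widest in Acta1, with a coefficient of variation of 58.7% of its CPM. Tnni1 had 52.0%, on only 3 to 29 counts per library, and Uchl1 was narrowest at 17.3%. These values pool the 4 groups, within which Acta1 ranged from 23.0% in CKD males to 71.2% in control females.

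**Figure D2:**
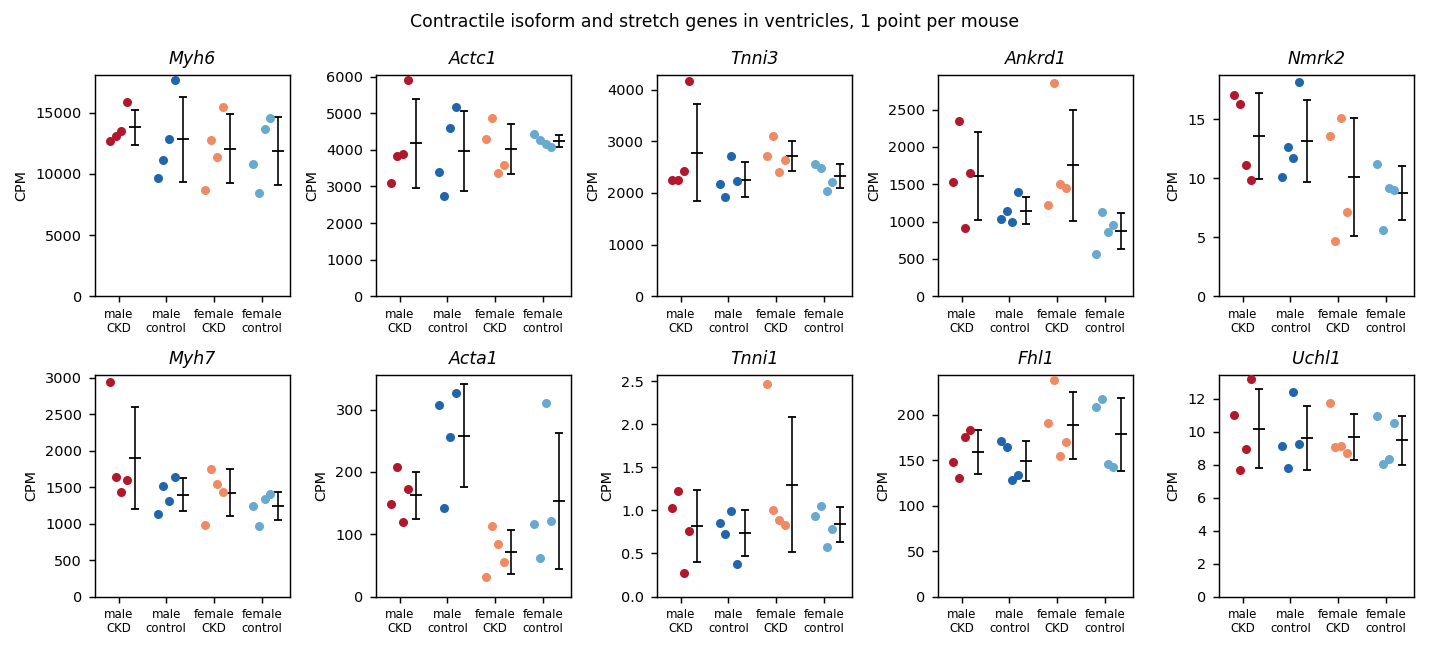
CPM of each of the 10 genes in every mouse (points, linear axis), with CKD left of control in each sex. Bars beside the points mark the group mean and SD. Acta1 shows the widest spread relative to its mean, 30.66 to 325.9 CPM. Ankrd1 in females is the only case in which all CKD mice lie above all controls of their sex.

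Myh6 and Myh7 lie in tandem on the minus strand of chromosome 14, Myh6 at 54941921 to 54966927 and Myh7 at 54970684 to 54994626 (GRCm38). Each carries a microRNA in an intron, miR-208a in Myh6 at 54949072 to 54949093 and miR-208b in Myh7 at 54975710 to 54975731, and the related miR-499 lies in an intron of Myh7b, a further myosin heavy chain gene, on chromosome 2 at 155622893 to 155622913. In mouse, miR-208a is known to be needed for Myh7 induction under stress. The 3 microRNAs were not measured in these libraries. Their mature strands (RefSeq, GRCm38.p6) are shown because they tie the myosin genes to each other, with the seed, bases 2 to 8, in capitals. The seeds of miR-208a and miR-208b are identical, and that of miR-499 ends in another base.
miR-208a-3p: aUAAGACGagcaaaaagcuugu
miR-208b-3p: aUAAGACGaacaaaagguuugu
miR-499-5p: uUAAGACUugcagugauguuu

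Myh6, the adult myosin motor, had 12682, 13100, 13478 and 15875 CPM in CKD males, against 9634, 11164, 12815 and 17643 CPM in control males. In females it had 8679, 12743, 11348 and 15445 CPM in CKD mice, against 10810, 8431, 13634 and 14590 CPM in controls. The groups overlapped throughout, and the log2 fold change was 0.06 (SE 0.14, 95% interval -0.24 to 0.37, adjusted p = 0.845). Myh7, the fetal motor, had 2944, 1639, 1433 and 1606 CPM in CKD males, against 1133, 1516, 1306 and 1635 CPM in control males. Female CKD mice had 984.0, 1744, 1538 and 1428 CPM, against 1246, 965.2, 1345 and 1405 CPM in controls. Male CKD mouse 1 was far above the other 15 mice, which overlapped between the diets. Myh7 averaged 1665 ± 565 CPM in CKD mice and 1319 ± 211 CPM in controls (SD, n = 8 each), and the log2 fold change was 0.32 (SE 0.15, 95% interval -0.00 to 0.65, adjusted p = 0.328). Without male CKD mouse 1 the fold change was 0.18 (adjusted p = 0.461).

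The Myh7 to Myh6 ratio, per kilobase of exon, was 0.1812, 0.0977, 0.0830 and 0.0790 in CKD males, against 0.0918, 0.106, 0.0795 and 0.0723 in control males. In females it was 0.0885, 0.107, 0.106 and 0.0722 in CKD mice, against 0.0900, 0.0894, 0.0770 and 0.0752 in controls. All mice but male CKD mouse 1 lay between 0.0722 and 0.107, and the diets overlapped. Myh7 thus made up 9.16% ± 2.71 of the pair in CKD mice and 7.84% ± 0.948 in controls (SD, n = 8 each). The log2 ratio was 0.21 higher in CKD mice, which a two-sided exact permutation test within sex did not separate (p = 0.222, adjusted p = 0.499 over 9 ratio tests; the smallest p that test allows is 0.000408). The difference was 0.26 in males (exact p = 0.514) and 0.16 in females (exact p = 0.400), where the smallest p allowed is 0.0286. Without male CKD mouse 1 it was 0.08 in all mice and -0.01 in males, and without female CKD mouse 2 it was 0.09 in females. Of the 50-base words in Myh6 exons, 20.2% also occur in Myh7, and 15.6% of those in Myh7 occur in another gene, nearly all in Myh6. The sources used here do not say how reads that match both were counted, so the ratio is uncertain to that extent. Myh7 also has 13.3% of its exon bases under exons of the opposite strand, among them Mhrt, a long noncoding RNA of the Myh7 locus. Mhrt itself had 33.3 ± 13.2 CPM in CKD mice and 37.7 ± 13.9 CPM in controls (SD, n = 8 each; log2 difference -0.19, SE 0.24, adjusted p = 0.725), and the sources used here do not say whether strand was used.

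**Figure D3:**
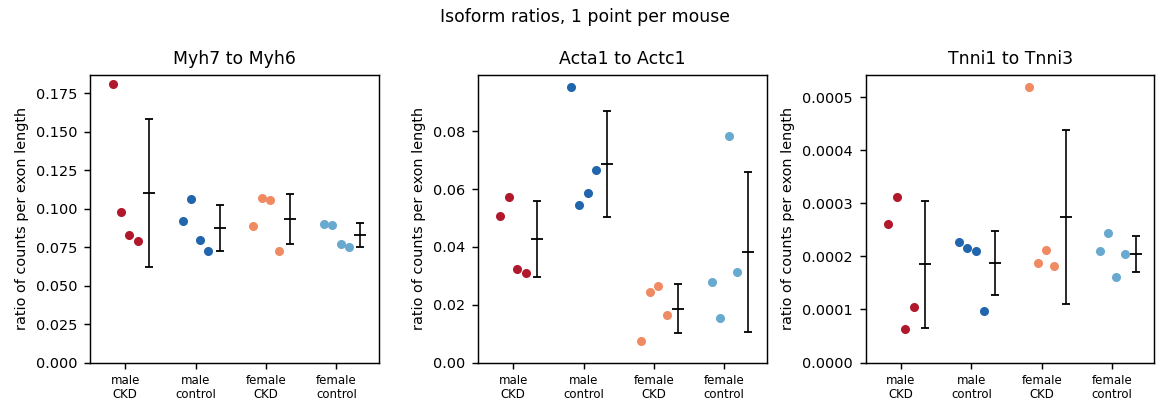
Ratio of the fetal to the adult isoform per kilobase of exon in every mouse (points, linear axis) for Myh7 to Myh6, Acta1 to Actc1 and Tnni1 to Tnni3. CKD is left of control in each sex, and bars beside the points mark the group mean and SD. One CKD male stands at 0.1812 in the myosin panel, and in the actin panel the CKD mice of both sexes tend to lie below the controls but overlap with them.

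Acta1 and Actc1 differ in where they are normally used, Acta1 in skeletal muscle and the fetal heart, Actc1 in the heart throughout life. Their promoter windows (RefSeq, GRCm38.p6, 250 bases before to 50 after the gene's start, 5′ to 3′ along the minus strand) are shown with those of Ankrd1 and Myh7, because these genes are described most closely here. Capitals mark the CArG box, which the serum response factor SRF is known to bind, and the MCAT element (CATTCC or its reverse complement GGAATG), which TEAD factors are known to bind. Both strands were searched. An MCAT match stood in 14.7% of the 32817 mouse promoter windows of this length and a CArG match in 1.63%.
Acta1, chr8:123894726-123895025: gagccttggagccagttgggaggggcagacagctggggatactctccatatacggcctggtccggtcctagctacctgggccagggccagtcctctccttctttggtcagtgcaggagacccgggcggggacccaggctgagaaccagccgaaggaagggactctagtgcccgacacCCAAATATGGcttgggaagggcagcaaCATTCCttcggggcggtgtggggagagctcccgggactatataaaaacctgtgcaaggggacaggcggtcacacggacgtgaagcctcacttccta
Actc1, chr2:114052826-114053125: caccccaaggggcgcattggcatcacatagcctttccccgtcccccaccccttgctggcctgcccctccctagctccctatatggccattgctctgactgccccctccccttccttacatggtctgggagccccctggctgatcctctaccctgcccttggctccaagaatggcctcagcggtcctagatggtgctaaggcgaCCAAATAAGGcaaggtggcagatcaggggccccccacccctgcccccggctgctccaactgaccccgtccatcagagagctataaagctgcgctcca
Ankrd1, chr19:36119795-36120094: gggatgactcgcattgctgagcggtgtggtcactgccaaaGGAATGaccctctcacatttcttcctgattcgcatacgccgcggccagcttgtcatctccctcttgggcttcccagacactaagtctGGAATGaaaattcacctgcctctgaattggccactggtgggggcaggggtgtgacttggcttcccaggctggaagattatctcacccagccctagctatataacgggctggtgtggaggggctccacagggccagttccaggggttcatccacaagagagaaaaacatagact
Myh7, chr14:54994577-54994876: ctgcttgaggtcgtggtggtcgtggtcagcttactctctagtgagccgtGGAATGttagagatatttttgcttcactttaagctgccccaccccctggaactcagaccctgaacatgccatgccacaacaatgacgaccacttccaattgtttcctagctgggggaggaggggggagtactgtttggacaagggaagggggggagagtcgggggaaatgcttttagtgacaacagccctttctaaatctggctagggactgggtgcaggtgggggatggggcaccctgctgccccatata
Acta1 had a CArG match at base -73 and an MCAT match at -46, counted from the start to the first base. Actc1 had a CArG match at -47, Ankrd1 MCAT matches at -210 and -123, and Myh7 an MCAT match at -201. Myh6 also held an MCAT match, at -206, and Fhl1 a CArG match, at -102. A second Myh7 window and the windows of the other genes held none of these letters. A match in these windows is a description of sequence only, and binding was not measured.

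Acta1 (chromosome 8, 123891769 to 123894751) had 148.6, 208.3, 120.1 and 173.1 CPM in CKD males, against 307.0, 142.6, 256.1 and 325.9 CPM in control males. Among females the values were 30.66, 112.6, 84.42 and 55.95 CPM in CKD mice, against 117.0, 61.93, 310.9 and 121.4 CPM in controls. Within each sex 3 of the 4 controls were above the CKD median, yet the ranges overlapped in both sexes. It averaged 117 ± 59.5 CPM in CKD mice and 205 ± 106 CPM in controls (SD, n = 8 each). The log2 fold change of -0.89 (SE 0.30, 95% interval -1.52 to -0.26) did not pass (adjusted p = 0.177). Males had a value of -0.67 (SE 0.43, adjusted p = 0.844) and females one of -1.11 (SE 0.43, adjusted p = 0.504), and the sex difference in the effect was -0.44 (SE 0.60, adjusted p = 1). With 1 library left out the female value was -1.45 to -0.53, nearest 0 without female control mouse 3 (adjusted p = 0.948). Actc1 (chromosome 2, 114047282 to 114053548) had 3087, 3826, 3888 and 5902 CPM in CKD males, against 3394, 2749, 4595 and 5162 CPM in control males. In females it had 4307, 4866, 3357 and 3583 CPM in CKD mice, against 4443, 4263, 4168 and 4083 CPM in controls. Its means were 4102 ± 913 CPM in CKD mice and 4107 ± 741 CPM in controls (SD, n = 8 each), with a 95% interval of -0.30 to 0.30 for the log2 fold change. The 2 transcripts shared no 50-base word with each other, and 2.02% of Acta1 words occur elsewhere, mostly in a pseudogene and in Actb.

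The Acta1 to Actc1 ratio was 0.0507, 0.0574, 0.0325 and 0.0309 in CKD males, against 0.0953, 0.0546, 0.0587 and 0.0665 in control males. In females it was 0.00750, 0.0244, 0.0265 and 0.0165 in CKD mice, against 0.0277, 0.0153, 0.0786 and 0.0313 in controls. All but 1 of the CKD males lay below every control male, and female control mouse 2, at 0.0153, was a control below 3 of the 4 CKD females. Acta1 thus made up 2.97% ± 1.55 of the actin pair in CKD mice and 5.02% ± 2.45 in controls (SD, n = 8 each). The log2 ratio was 0.81 lower in CKD mice (difference -0.81, two-sided exact permutation p = 0.0212), which did not pass over the 9 ratio tests (adjusted p = 0.191). It was -0.70 in males (exact p = 0.0571) and -0.93 in females (exact p = 0.200). Without female control mouse 2 the difference was -0.99 and passed (exact permutation test, adjusted p = 0.0257), and without both libraries that stood apart it was -0.92 (adjusted p = 0.0588). Without female control mouse 3, the highest female, it was -0.60 in all mice (exact permutation test, adjusted p = 0.257) and -0.50 in females (adjusted p = 0.926).

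Troponin I holds back actin and myosin until calcium rises, and its slow skeletal isoform Tnni1 (chromosome 1, 135779434 to 135810989) is replaced by cardiac Tnni3 (chromosome 7, 4518305 to 4524229) after birth. Tnni1 was barely detected, with 3 to 29 counts per library. It had 1.03, 1.22, 0.268 and 0.758 CPM in CKD males, against 0.856, 0.721, 0.997 and 0.377 CPM in control males. Female CKD mice had 2.46, 1.01, 0.889 and 0.832 CPM, against 0.935, 1.05, 0.574 and 0.788 CPM in controls. Female CKD mouse 1 was the highest, and the log2 fold change was 0.41 (SE 0.31, adjusted p = 0.540), or 0.14 (adjusted p = 0.871) without that mouse. Tnni3 had 2258, 2248, 2428 and 4174 CPM in CKD males, against 2166, 1916, 2712 and 2230 CPM in control males. Among females the values were 2717, 3095, 2410 and 2632 CPM in CKD mice, against 2561, 2473, 2041 and 2218 CPM in controls. Its means were 2745 ± 641 CPM in CKD mice and 2290 ± 270 CPM in controls (SD, n = 8 each), and the log2 fold change was 0.26 (SE 0.12, adjusted p = 0.325). Male CKD mouse 4, the library with the lowest fibroblast and endothelial sums, was the highest in Tnni3, and without it the fold change was 0.14 (adjusted p = 0.470). The Tnni1 to Tnni3 ratio averaged 0.000230 ± 0.000141 in CKD mice and 0.000196 ± 4.64e-05 in controls (SD, n = 8 each), a log2 difference of 0.03 (exact permutation p = 0.918). Without female CKD mouse 1 that difference was -0.15.

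Ankrd1 (chromosome 19, 36111961 to 36120099) encodes a muscle ankyrin repeat protein that sits on titin in the sarcomere and also enters the nucleus. It had 1533, 2341, 914.1 and 1656 CPM in CKD males, against 1032, 1140, 1000 and 1400 CPM in control males. In females it had 1217, 2854, 1506 and 1443 CPM in CKD mice, against 559.9, 1131, 859.4 and 948.5 CPM in controls. All 4 CKD females lay above all 4 control females, an ordering found for 5.08% of all genes, while 1 CKD male lay below every control male. It averaged 1683 ± 624 CPM in CKD mice and 1009 ± 243 CPM in controls (SD, n = 8 each), a fold of 1.68 (log2 0.75, SE 0.21, 95% interval 0.31 to 1.19). edgeR's adjusted p was 0.123 and that of limma-voom also missed the threshold, while DESeq2 called the gene (log2 0.75, SE 0.22, adjusted p = 0.0332). Females had a value of 1.004 (SE 0.29, adjusted p = 0.437) and males one of 0.49 (SE 0.29, adjusted p = 0.806), and the difference between the sexes was 0.51 (SE 0.41, adjusted p = 1). Female CKD mouse 2 was the highest of all mice, and without it the fold change was 0.57 in all mice (adjusted p = 0.248) and 0.64 in females (adjusted p = 0.994). Without male CKD mouse 2, the highest male, the value in males was 0.23 (adjusted p = 0.921).

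Fhl1 (chromosome X, 56731787 to 56793346), a LIM-domain protein that takes part in stretch sensing at titin, had 147.6, 130.8, 175.5 and 182.6 CPM in CKD males, against 170.8, 164.0, 127.6 and 133.3 CPM in control males. Female CKD mice had 191.2, 238.1, 153.9 and 169.7 CPM, against 208.3, 217.1, 145.8 and 142.0 CPM in controls. The groups overlapped in both sexes, and the 95% interval of the log2 fold change was -0.17 to 0.34 (estimate 0.09, SE 0.12, adjusted p = 0.750). Nmrk2 (chromosome 10, 81198170 to 81202051), a muscle kinase that makes NAD precursor from nicotinamide riboside, had 17.0, 16.3, 11.1 and 9.86 CPM in CKD males, against 10.1, 12.6, 11.7 and 18.1 CPM in control males. Among females the values were 13.6, 4.64, 15.1 and 7.12 CPM in CKD mice, against 11.2, 5.61, 9.18 and 8.97 CPM in controls. Its log2 fold change was 0.13 (SE 0.22, 95% interval -0.33 to 0.60, adjusted p = 0.792) at 46 to 232 counts per library. Its opposite-strand neighbour Atcayos, which covers 14.6% of the Nmrk2 exon bases, had 117 ± 44.6 CPM in CKD mice and 69.7 ± 12.4 CPM in controls (SD, n = 8 each; log2 fold change 0.76, SE 0.17, adjusted p = 0.0946). Uchl1 (chromosome 5, 66676091 to 66687234), a neuronal ubiquitin hydrolase that is known to be raised in stressed heart muscle, had 10.99, 7.67, 8.94 and 13.2 CPM in CKD males, against 9.13, 7.79, 12.4 and 9.24 CPM in control males. In females it had 11.7, 9.09, 9.12 and 8.69 CPM in CKD mice, against 10.96, 8.06, 8.36 and 10.5 CPM in controls. The log2 fold change was 0.05 (SE 0.13, 95% interval -0.23 to 0.34, adjusted p = 0.860), while summed neuron and Schwann cell markers were 16.7 to 24.8 CPM in CKD mice and 18.8 to 33.3 CPM in controls, with the neuronal marker Th at 0 in 15 libraries. Uchl1os, which covers 18.1% of the Uchl1 exon bases on the opposite strand, had at most 1 count per library.

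Between the sexes, 0 of 10 genes passed among controls and 0 of 10 among CKD mice, against 0.0366% and 0.0427% of all genes. Both comparisons use the same mice as those between the diets, and the one among CKD mice was added after the values were seen. In CKD mice Acta1 was lower in every female than in every male, an ordering in that direction found for 6.96% of all genes. It averaged 70.9 ± 35.4 CPM in CKD females and 162.5 ± 37.4 CPM in CKD males (SD, n = 4 each), a log2 difference of -1.20 (SE 0.43, adjusted p = 0.265). Among controls it averaged 153 ± 109 CPM in females and 258 ± 82.3 CPM in males (SD, n = 4 each), a log2 difference of -0.75 (SE 0.43, adjusted p = 0.639), with overlap. That difference was -1.37 without female control mouse 3 (adjusted p = 0.316) and -0.49 without female control mouse 2 (adjusted p = 0.994). Nmrk2 averaged 8.74 ± 2.32 CPM in control females and 13.1 ± 3.46 CPM in control males (SD, n = 4 each; log2 difference -0.58, SE 0.32, adjusted p = 0.639). Myh7 was 0.42 log2 units lower in CKD females than in CKD males (SE 0.22, adjusted p = 0.368), and without the high male CKD mouse 1 the difference was -0.13 (adjusted p = 0.768). The difference between the sexes in the effect of CKD passed for 0 of 10 genes, against 0% of all genes, and had an unadjusted p under 0.05 for 0 of 10, against 1.68% of all genes.

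The libraries carry a C number from 2 to 6 in their titles whose meaning the sources used here do not explain. With that number as a factor the fold change of Ankrd1 was 0.69 (adjusted p = 0.122), that of Acta1 -0.996 (adjusted p = 0.127) and that of Myh7 0.37 (adjusted p = 0.231). Among the 10 libraries with number 6 the values were 0.74 for Ankrd1, -0.96 for Acta1 and 0.44 for Myh7, and none passed. With both libraries that stood apart left out, Ankrd1 was at 0.80 (adjusted p = 0.134), Acta1 at -1.05 (adjusted p = 0.132) and Myh7 at 0.29 (adjusted p = 0.356). Number 3 holds 1 CKD male, with 1656 CPM of Ankrd1, and 1 control male, with 1000 CPM. Number 2 holds 1 CKD female, with 1443 CPM, 1 control female, with 948.5 CPM, and 1 control male. Number 5 holds 1 CKD male only. The Ankrd1 and Acta1 directions were thus the same among these libraries: Acta1 had 173.1 CPM in the CKD male and 256.1 CPM in the control male of number 3, and 55.95 CPM in the CKD female and 121.4 CPM in the control female of number 2.

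**Figure D4:**
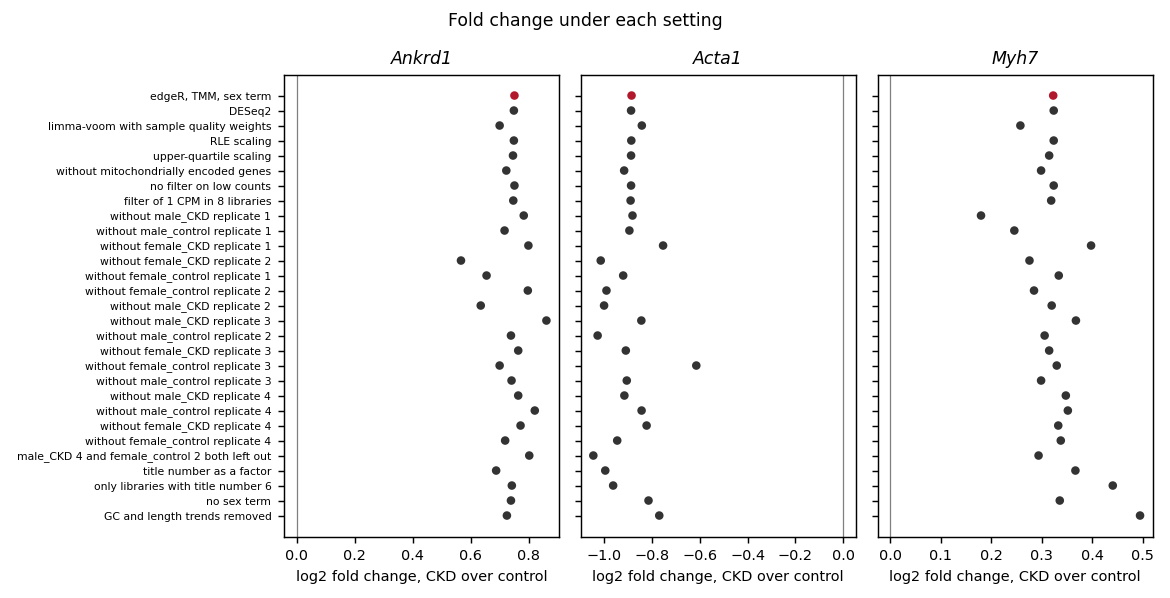
Log2 fold change, CKD over control in all mice, of Ankrd1, Acta1 and Myh7 under the main fit (top, red) and 28 other settings. Every value keeps its sign: Ankrd1 lies between 0.57 and 0.86, Acta1 between -1.05 and -0.61 and Myh7 between 0.18 and 0.50.

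Across the 16 mice, with the mean of each of the 4 groups removed, the 45 pairs of these genes were compared by Pearson's r and Spearman's rho on log2 CPM. The closest pair was Actc1 and Tnni3, both adult isoforms of the thin filament (r = 0.802, permutation p = 0.00208, adjusted p = 0.0936 over 45 pairs; rho = 0.809, permutation p = 0.000340, adjusted p = 0.0153). It was still close without the 2 mice farthest from the median (r = 0.809) and without both libraries that stood apart (r = 0.714). No other pair passed by either coefficient. Myh6 and Myh7 had r = 0.479 and rho = 0.456 (permutation p = 0.0516 and p = 0.0924, adjusted p = 0.397 and 0.462; r = 0.468 without the 2 farthest mice), so that mice with more of the adult motor tended to have more of the fetal one, without passing. All pairs share the libraries and their scaling. Of the 50-base words in Myh6, 20.2% also occur in Myh7, and the part of reads that match both in the Myh6 and Myh7 correlation was not tested.

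**Figure D5:**
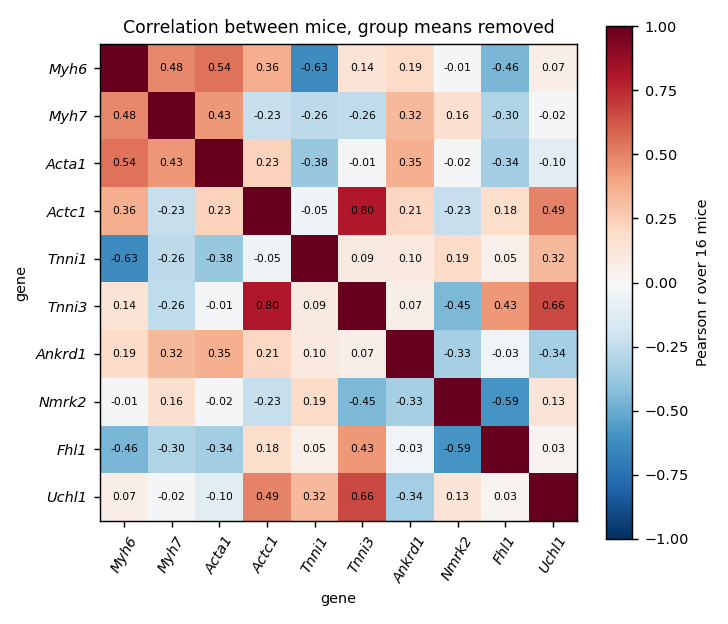
Pearson correlation between each pair of the 10 genes over 16 mice after the group means were removed; colour and printed value give r. The darkest cell off the diagonal is Actc1 with Tnni3 at 0.80.

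Other protein-coding genes, 11942 in number, were compared with Myh7, Acta1 and Ankrd1 by Pearson's r of log2 CPM over the 16 libraries, with group means removed. The ones most like Myh7 were Tox3 (r = 0.831), Hes1 (0.828) and 1700037H04Rik (0.827). Those most like Acta1 were Exoc3l4 (0.886), Ears2 (0.845) and Amigo3 (0.842), and those most like Ankrd1 were Hspa1l (0.851), Fbn2 (0.773) and Atp8a2 (0.773). These are descriptions of 16 libraries that share their scaling.

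Beside the 10 genes, 90 related genes in 8 lists were tested, of 103 listed, and 0 passed in CKD mice against controls, against 0.0854% of all genes. An unadjusted p under 0.05 was reached by 13 of the 90, against 15.4% of all genes, so these counts are near the background. Among the other actins the fold change was negative in 4 of 4 (median -0.40, against 0.00 over all genes). The cytoplasmic actins Actb (-0.40, SE 0.13, adjusted p = 0.163) and Actg1 (-0.40, SE 0.14, adjusted p = 0.184) were nearest the threshold. Both are made by most cell types, and the summed fibroblast markers of 500.5 to 2229 CPM in CKD mice and 1771 to 2383 CPM in controls stand beside them, their part not tested. The other troponins were positive in 3 of 4 (median 0.28), with Tnnt2, the cardiac troponin T, at 6130 ± 1003 CPM in CKD mice and 4784 ± 467 CPM in controls (SD, n = 8 each; log2 fold change 0.36, SE 0.10, adjusted p = 0.123). Other fetal or atrial contractile isoforms were positive in 0 of 7 (median -0.30), and the tropomyosin Tpm3 (-0.30, SE 0.10, adjusted p = 0.168) was nearest the threshold. This list also holds the smooth muscle genes Smtn (-0.53, SE 0.23, adjusted p = 0.274) and Tagln (-0.00, SE 0.21), and the actin list holds smooth muscle Acta2 (-0.17, SE 0.33) and Actg2 (-0.39, SE 0.35). The summed vascular smooth muscle markers, 7 of 7 in the table and Acta2, Tagln and Smtn among them, were 229.2 to 400.3 CPM in CKD mice (median 284.2) and 221.5 to 558.3 CPM in controls (median 369.4). In females they were 229.2 to 322.2 CPM in CKD mice and 326.9 to 558.3 CPM in controls, and in males 235.9 to 400.3 CPM in CKD mice and 221.5 to 409.7 CPM in controls. Their part in these values was not tested. Other myosin heavy chains were positive in 1 of 6 (median -0.11), with nonmuscle Myh9 at -0.57 (SE 0.33).

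Other stretch and hypertrophy genes were positive in 11 of 17 (median 0.02). Ccn2, a matricellular protein, had 0.50 (SE 0.21, adjusted p = 0.270) and Csrp3, a Z-disc LIM protein, 0.25 (SE 0.12, adjusted p = 0.303). The NAD genes beside Nmrk2 were positive in 5 of 11 (median -0.02), with Nampt, which makes NAD precursor from nicotinamide, at 0.37 (SE 0.14, adjusted p = 0.207). The ubiquitin genes beside Uchl1 were positive in 6 of 12 (median -0.01), with Trim54, a muscle ring-finger ligase, at 0.34 (SE 0.12, adjusted p = 0.184). Known regulators of these isoforms were positive in 10 of 29 (median -0.09). Of them Wwtr1 (-0.24, SE 0.10, adjusted p = 0.273) and Yap1 (-0.19, SE 0.09, adjusted p = 0.308), coactivators of TEAD, were among those with the lowest p. Tead1, of the family that binds MCAT elements, had -0.21 (SE 0.17) and Srf, which binds CArG boxes, had -0.09 (SE 0.29).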

How the data were processed

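The authors deposited raw counts per gene, made from total RNA of ventricles (RNeasy Plus Mini) read as 50 bp paired ends. STAR 2.6.1d on mm10, featureCounts, Subread 1.6.3, DESeq2 1.30.1, FastQC and MultiQC are named in the submitters' processing notes. Annotation release, strand setting and treatment of multiply matching reads: not given in the sources used here. GENCODE M21 gave symbols for 33367 of 33399 IDs. The main test was edgeR 4.0.16's quasi-likelihood F test in R 4.3.3 on these counts (TMM scaling, filterByExpr, sex as a term; a 4-group model for comparisons within sexes), checked on simulated counts. The common biological coefficient of variation was 0.225. DESeq2 1.42.0, limma 3.58.1 (voom) and other settings were alternatives. Isoform ratios were compared by exact permutation within sex, and correlations by 100000 permutations. Of each related list the text names up to 3 genes with the lowest p, 1 of which is not reported here; Tead1 and Srf were named after their values were seen. The genes and lists were chosen with earlier results of these data known, and mice are numbered in accession order.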

Additional observations from a re-analysis of the deposited data

Results flagged for a closer look

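Among 52 groups of 4 mice (10 genes and 3 ratios in 4 groups), 6 had 1 mouse far from the other 3, where chance gives about 1 in 20. Myh7 was 2944 CPM in male CKD mouse 1 and 1433 to 1639 CPM in the other CKD males. Tnni3 was 4174 CPM in male CKD mouse 4, a library that stood apart across many genes, and 2248 to 2428 CPM in the other CKD males. In female CKD mouse 1, Tnni1 was 2.463 CPM (0.832 to 1.01 in the other CKD females), Uchl1 was 11.72 CPM (8.69 to 9.12) and the Tnni1 to Tnni3 ratio was 0.0005195 (0.000181 to 0.000212). The Tnni1 to Tnni3 ratio was 9.691e-05 in male control mouse 4 and 0.000211 to 0.000226 in the other control males. No such mouse was found in any group for Myh6, Acta1, Actc1, Ankrd1, Nmrk2 or Fhl1. Tnni1 rests on 3 to 29 counts per library.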

How the results depend on the processing

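Of the 10 genes, DESeq2 called 1 (Ankrd1) in all mice where edgeR and limma-voom called 0, and of the 90 related genes it called 1 (Tnnt2, log2 0.36, SE 0.10, adjusted p = 0.0347) where both called 0. In the other comparisons of the 10 genes, within and between the sexes, all 3 tools called 0. Over all genes the number called in all mice, 14 in the main fit, was 6 to 398 over the settings, the most with DESeq2 (limma-voom 199, title number as a factor 234, no count filter 53, GC and length trends removed 27), and 6 to 43 with 1 library left out. In males it was 0 to 12 (main 0), in females 0 to 55 (main 9), and between the sexes 6 to 10 among controls (main 6) and 6 to 1554 among CKD mice (main 7). The adjusted p of Ankrd1 in all mice ranged over the settings from 0.0332 to 0.322, that of Acta1 from 0.0792 to 0.397 and that of Myh7 from 0.0816 to 0.548. With GC and length trends removed Myh7 was at 0.50. With each library left out in turn the Acta1 to Actc1 difference ranged from -0.991 to -0.598 (adjusted p = 0.0257 to 0.408, exact permutation test) and the Myh7 to Myh6 difference from 0.08 to 0.28. Within males the myosin difference was -0.01 to 0.39, the lowest without male CKD mouse 1. A filter of 1 CPM in 8 libraries removed Tnni1. No paired analysis was possible because the labels number no replicates. The C number of the titles, whose meaning is unknown and which several mice of a group share, was fitted as a factor instead.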
